A study of Mus musculus with 84 samples.

Results

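The genes described here are the leukocyte surface antigens, chemokines, interleukins, their receptors and the major histocompatibility complex (MHC) genes read by a 15k spotted cDNA array in mammary glands, mammary tumors and lung metastases of mice. A clone was taken where its single gene symbol was a CD number, a Ccl, Cxcl, Ccr or Cxcr number, an interleukin (Il) symbol or an H2 symbol, leaving out Cd8a, Cd79b, Cd36, Cd81, Cd109 and Cd59a. This gave 138 clones of 91 genes, out of 7766 genes represented by 11860 single-symbol clones among the 15360 clones of the array. Clones were averaged per gene, so that 58 genes rest on 1 clone and 33 on several. No class I gene was among the 91, since the 4 remaining H2 clones carried several symbols and were not used.

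MHC class II molecules display peptides from outside the cell to CD4+ T cells. They are pairs of an alpha and a beta chain that are made mainly by B cells, macrophages and dendritic cells, are accompanied by the invariant chain Cd74 on the way to the endosome, and receive their peptide with the help of H2-DM under the restraint of H2-O. Chemokines are small secreted proteins that draw leukocytes bearing the matching receptor into a tissue, and interleukins are secreted signals that set what the leukocytes and their neighbors do there. Several CD antigens, such as Cd44, Cd24a and Cd9, are also made by epithelial cells, and the fat pad of a mammary gland holds macrophages and lymphocytes of its own.

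The 15k arrays covered 8 groups of samples, and tumors hybridized to another array design were not used here. The controls were mammary glands of 9-week virgin nontransgenic FVB mice (VMG, 5 arrays), and the premalignant tissue was hyperplastic glands of 9-week MMTV-Wnt-1 mice (WntH, 7 arrays). Tumors came from MMTV-Wnt-1 mice aged 9 to 56 weeks (WntT, 23 arrays) and from MMTV-Neu mice aged 32 to 60 weeks (NeuT, 12 arrays). Lung metastases came from MMTV-Wnt-1 mice (WntM, 10 arrays), from MMTV-Neu mice (NeuM, 3 arrays) and from nontransgenic mice into whose tail veins cells of Neu tumors had been put (2 arrays). Intestinal fat of 12-week virgin FVB mice was hybridized on 3 arrays. Both transgenes are driven by the long terminal repeat of the mouse mammary tumor virus (MMTV), which is active mainly in mammary epithelium, and the Neu transgene is the wild-type rat cDNA. The MMTV-Neu mice were FVB, like the controls and the mice that gave the fat, whereas the MMTV-Wnt-1 mice were of a mixed background of FVB, SJL and C57BL/6. The effects of the oncogene, of the strain, between which MHC genes are highly polymorphic, and of the age of the mice cannot be told apart in any comparison of Wnt-1 with Neu tissue. The same holds for oncogene and strain wherever Wnt-1 tissue is set against the FVB virgin glands, and for oncogene and age wherever tumors of either line are set against these 9-week glands.

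Each value is a log2 ratio of the sample (Cy5) to a common reference RNA (Cy3). The reference was pooled from 8 mouse organs that included lung, spleen and thymus. A value of 0 thus means the level in the pool, and levels of different genes are not set against each other. The standard deviation of all ratios on an array ranged from 0.67 to 2.59 (median 0.936), and 6 arrays stood apart with a standard deviation over 1.3. These were WntM 19, 50 and 52, WntT 42 and 49, and fat 44, and results that depend on them are given with and without them. No value of the 91 genes was missing. As counts of arrays set the precision, groups of 3 allow little, and the labels do not say whether every array is a separate mouse, so p-values measure the spread between these samples. Differences were tested with limma over all 7766 genes, and a gene is called higher or lower where its Benjamini-Hochberg adjusted p was under 0.05. In whole tissue, fewer cells of a type and less RNA per cell cannot be told apart.

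The promoters of class II genes are shown because they share an arrangement that the gene symbols do not give away. Upstream of class II genes lies an X box, bound by the RFX complex, and a Y box, bound by NF-Y, and the coactivator Ciita acts through both. The core letters GCAAC of the X box and the letters TGATTGG of the Y box, which hold the reversed CCAAT box, were searched on both strands in the window from 250 bases before to 50 bases after each RefSeq gene start (GRCm38.p6, a C57BL/6 genome). Of the 91 genes, 65 had 76 promoters in that table. The 5 sequences below, of 150 bases each, hold GCAAC followed by TGATTGG after a gap of 20 to 30 bases and end at the base before the gene start. Capitals mark every GCAAC and TGATTGG on the strand shown.
H2-Aa: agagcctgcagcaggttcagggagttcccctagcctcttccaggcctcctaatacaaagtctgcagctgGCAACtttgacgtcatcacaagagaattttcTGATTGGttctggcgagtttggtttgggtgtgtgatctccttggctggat
H2-Eb1: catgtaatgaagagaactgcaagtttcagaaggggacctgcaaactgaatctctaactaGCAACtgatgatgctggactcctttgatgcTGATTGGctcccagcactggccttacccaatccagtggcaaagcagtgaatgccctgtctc
H2-Eb2: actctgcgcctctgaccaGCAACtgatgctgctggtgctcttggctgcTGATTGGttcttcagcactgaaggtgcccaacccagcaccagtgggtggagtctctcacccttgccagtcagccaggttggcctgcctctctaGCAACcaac
H2-Oa: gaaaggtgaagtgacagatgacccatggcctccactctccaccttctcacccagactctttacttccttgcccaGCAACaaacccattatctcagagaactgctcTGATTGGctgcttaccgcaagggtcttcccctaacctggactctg
H2-Ob: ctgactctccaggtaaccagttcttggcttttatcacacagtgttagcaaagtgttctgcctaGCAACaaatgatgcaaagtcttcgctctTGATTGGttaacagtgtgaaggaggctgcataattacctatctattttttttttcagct
They lie at chr17:34287824-34287973 on the minus strand (H2-Aa) and, on the plus strand, at chr17:34305717-34305866 (H2-Eb1), chr17:34325525-34325674 (H2-Eb2), chr17:34092229-34092378 (H2-Oa) and chr17:34238755-34238904 (H2-Ob). The gap between both motifs was 26 bases in H2-Aa and H2-Oa, 25 in H2-Eb1 and H2-Eb2, and 23 in H2-Ob. Such a pair stood in 5 of the 8 promoters of 7 class II genes and in 34 of 32851 promoters of the genome (0.103%). Cd74 was left out of this count by choice, and H2-Ab1 and H2-Ea had no promoter entry. Of the 76 promoters of the 91 genes, 5 held the pair, and these are the 5 shown. No Cd74 promoter among the 76 thus held it. TGATTGG alone stood in 7.82% of all promoters and GCAAC alone in 35.2%. H2-DMb2 had a TGATTGG but no such pair, and neither H2-DMa promoter had one. Genes with the pair included H2-Eb1, H2-Eb2 and H2-Aa, which were called higher in Wnt-1 than in Neu tumors, and H2-Oa and H2-Ob, which were not.

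Class II genes were higher in Wnt-1 tumors than in Neu tumors. Of the 10 class II and loading genes, 6 were called higher (H2-Eb1, H2-Ab1, Cd74, H2-DMa, H2-Aa and H2-Eb2), 1 was called lower (H2-DMb2) and 3 were not called (H2-Ea, H2-Oa and H2-Ob, with differences of 0.23, 0.24 and 0.07 on the log2 scale). The H2-Oa value averages clones that differed, with 0.70 (adjusted p = 0.0115) for one and -0.21, not called, for the other, and their ratios did not move together (r = -0.07). Over all genes 22.8% were called higher and 23% lower. The median difference of the 10 genes was 0.56, against -0.03 for all genes.

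H2-Eb1, the beta chain of H2-E, separated the tumors completely. Its log2 ratio ran from -0.22 through a median of 0.69 to 1.31 in Wnt-1 tumors, and from -1.41 through -0.98 to -0.31 in Neu tumors. All 23 Wnt-1 tumors lay above all 12 Neu tumors, and expression was 2.67-fold higher (log2 difference 1.41 ± 0.14 SE, limma adjusted p = 6.63e-11). In the virgin glands H2-Eb1 measured -0.43, -0.13, -0.14, -0.11 and -0.18, which falls between most Wnt-1 and most Neu tumors. Hyperplastic glands, from -0.03 through 0.51 to 0.93, all lay above the virgin glands. H2-Eb1 was therefore called higher in Wnt-1 tumors than in virgin glands (0.76, adjusted p = 0.000463) and lower in Neu tumors than in the same glands (-0.66, adjusted p = 0.00458). The group means were 0.40 in hyperplastic glands, 0.56 in tumors and 0.54 in metastases of the mixed-strain Wnt-1 mice, and -0.20 in virgin glands, -0.85 in Neu tumors and -0.46 in fat of FVB mice, so that strain cannot be told apart from the oncogene here. The 4 clones of H2-Eb1 were each called in the tumor comparison but differed in size, with differences of 0.40, 0.61, 2.22 and 2.44. Against virgin glands, 3 of them were called higher in Wnt-1 tumors (0.47, 1.21 and 1.38) and the clone at 0.61 was not (-0.02). In Neu tumors the clone at 0.40 did not lie below the virgin glands (means 0.22 and 0.14), whereas the other 3 did.

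H2-Ab1, the beta chain of H2-A, ran from -1.16 through 0.06 to 1.15 in Wnt-1 tumors and from -2.93 through -1.5 to -0.38 in Neu tumors. It was 2.85-fold higher in Wnt-1 tumors (log2 difference 1.51 ± 0.23 SE, adjusted p = 1.52e-06), 19 of 23 of which lay above every Neu tumor. In virgin glands it measured 0.11, 0.56, -0.08, 0.26 and 0.22. Cd74, the invariant chain, ran from -1.42 through -0.07 to 0.88 in Wnt-1 tumors and from -2.73 through -1.28 to -0.36 in Neu tumors. Its level was 2.39-fold higher in Wnt-1 tumors (1.26 ± 0.21 SE, adjusted p = 6.85e-06), with 17 of 23 above every Neu tumor, whereas virgin glands measured -0.47, -0.11, -0.04, 0.11 and 0.06. In both genes the Wnt-1 tumors overlapped the virgin glands and the Neu tumors reached far below them.

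H2-DMa, which loads peptides, was higher in Wnt-1 tumors by 0.63 (adjusted p = 2.87e-05), and its 2 clones gave 0.65 and 0.60. H2-Eb2 differed by 0.56 (adjusted p = 7.41e-05) and H2-Aa, the alpha chain of H2-A, by 0.56 (adjusted p = 0.0025). The H2-Aa value rests on 1 of its 2 clones, since one differed by 1.27 (adjusted p = 0.000438) and the other by -0.16, which was not called, and their ratios did not move together across arrays (r = -0.12). H2-DMb2 was lower in Wnt-1 tumors by a small amount (-0.27, adjusted p = 0.00539), and its clones gave -0.03 and -0.51. The plot of class II values by group shows these genes array by array.

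**Figure D1:**
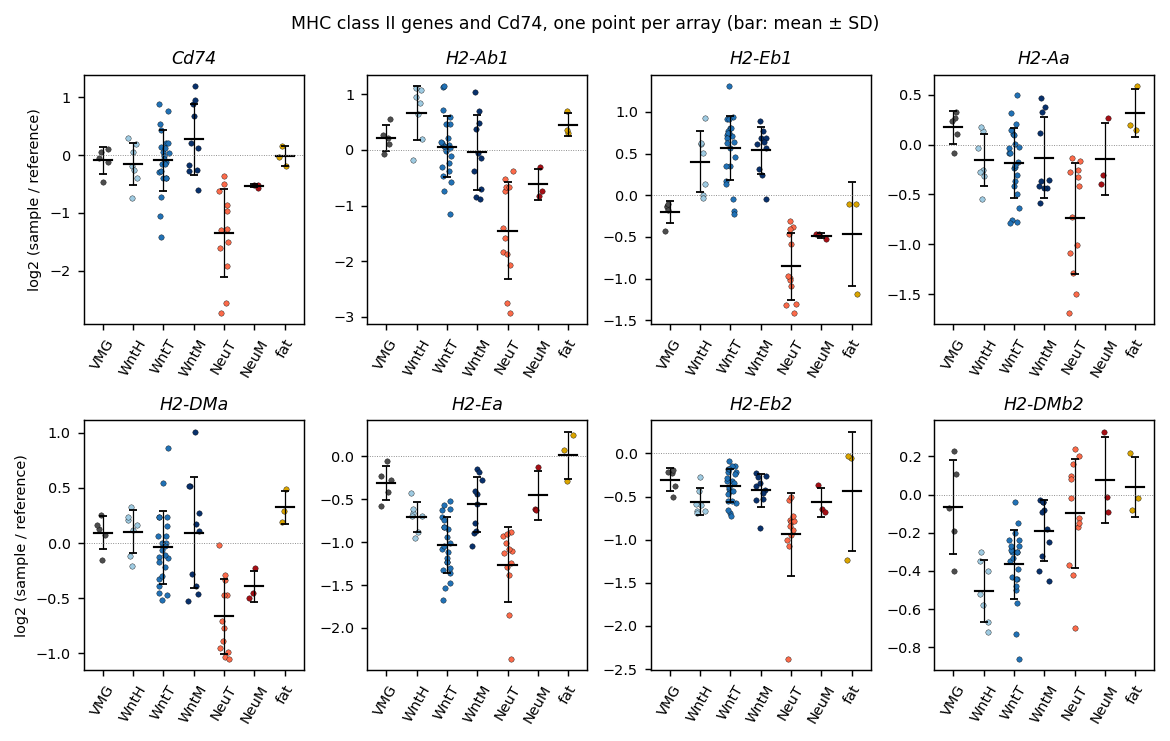
Log2 ratio of sample to reference for 8 class II genes and loading factors, one point per array, with the mean and SD of each group as bars. The Wnt-1 tumors (WntT, 23 arrays) and the Neu tumors (NeuT, 12 arrays) do not overlap for H2-Eb1, and the Neu tumors reach lowest for Cd74, H2-Ab1, H2-Aa and H2-DMa.

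Set against virgin glands, 8 of the 10 class II genes were called lower in Neu tumors and 2 were not (H2-DMb2 at -0.03 and H2-Ob at -0.39). H2-Ab1 fell by 1.67 (3.18-fold lower), Cd74 by 1.26, H2-Ea by 0.96, H2-Aa by 0.91, H2-Oa by 0.86, H2-DMa by 0.75, H2-Eb1 by 0.66 and H2-Eb2 by 0.63. Clones differed in size here. From virgin glands to Neu tumors, the mean of 1 H2-Aa clone went from 0.2 to -1.47 and that of the other from 0.15 to -0.01. For H2-Eb1, 1 clone did not fall (0.14, then 0.22), while the others went from -0.26 to -1.26, from -0.4 to -1.46 and from -0.28 to -0.91. In Wnt-1 tumors 1 of 10 was called higher than in virgin glands (H2-Eb1), 2 lower (H2-Ea by -0.73 and H2-DMb2 by -0.30) and 7 were not called. The H2-DMb2 call in Wnt-1 tumors was lost when VMG 29 was left out (-0.23, adjusted p = 0.0678). Over all genes 28.8% were lower and 26.8% higher in Neu tumors, and 26.5% lower and 26% higher in Wnt-1 tumors. The median over the 10 genes was -0.81 in Neu tumors and -0.23 in Wnt-1 tumors, against 0.01 and -0.02 over all genes.

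Leukocyte markers moved in the same comparisons. Of a list of 15 measured pan-leukocyte genes outside the 91, 12 were called lower and 1 higher in Neu tumors than in virgin glands (median -0.81), 7 lower and 3 higher in Wnt-1 tumors than in virgin glands (median -0.46), and 6 higher and 1 lower in Wnt-1 than in Neu tumors (median 0.35). Coro1a and Lcp1 were both higher by 0.75 in Wnt-1 tumors, whereas Ptprc (CD45) differed by 0.12 and was not called. The mean of the list ran from -0.52 to -0.15 in virgin glands, from -1.34 to -0.64 in Wnt-1 tumors and from -1.61 to -1.11 in Neu tumors. Macrophages and dendritic cells carry class II, and of 13 measured markers of them outside the 91, 3 were higher (Lgals3 by 1.97, Mrc1 by 0.97 and C1qc by 0.39) and 1 lower (Fcgr3, -0.50) in Wnt-1 than in Neu tumors (median 0.18). Against virgin glands 2 were higher and 4 lower in Wnt-1 tumors (median -0.10), and 1 was higher and 4 lower in Neu tumors (median -0.32). The mean of these 13 ran from 0.50 to 0.69 in virgin glands, from -0.04 through 0.50 to 0.94 in Wnt-1 tumors and from -0.16 through 0.06 to 1.02 in Neu tumors. No defining marker could be called absent, since the arrays give ratios, and the part of leukocyte content in the class II differences was not tested.

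Some helpers of class I presentation and most measured interferon-response genes were lower in Wnt-1 than in Neu tumors. B2m, the light chain of class I, ran from -1.55 through -0.63 to 1.38 in Wnt-1 tumors and from -0.26 through 1.43 to 2.6 in Neu tumors, and was lower in Wnt-1 tumors by 1.97 on the log2 scale (-1.97 ± 0.22 SE, adjusted p = 1.4e-09, 1 clone). Virgin glands lay at 1.36 ± 0.14 (SD, n = 5), close to the Neu tumors. Erap1, which trims peptides for class I, was lower by 1.75 (difference -1.75) and Tap1, a subunit of the peptide transporter of class I, by 0.74 (difference -0.74, adjusted p = 1.44e-05). Tap2, the other subunit of the transporter, differed by 0.16 (adjusted p = 0.724) and the proteasome activator Psme1 by 0.01 (adjusted p = 0.957), and neither was called. Of 17 measured antigen presentation genes outside the 91, 4 were lower (B2m, Erap1, Tap1 and Rfxank) and 2 higher (Creb1 and Nfyb) in Wnt-1 tumors, with a median of 0 against -0.03 over all genes, and Ciita, the class II coactivator, differed by 0.01 and was not called. Of 19 measured interferon-response genes, 13 were lower and 3 higher (median -0.41), among them Oas1a (-1.81), Oasl2 (-1.42), Usp18 (-1.27) and Gbp2 (-1.01). Against virgin glands the interferon-response list was 8 higher and 4 lower in Neu tumors and 6 higher and 5 lower in Wnt-1 tumors.

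Over all 91 genes, 23 (25.3%) were called higher and 12 (13.2%) lower in Wnt-1 than in Neu tumors, where 22.8% of all genes were called higher and 23% lower. The share of higher calls was thus near that of all genes and the share of lower calls below it. Among the lower genes not given elsewhere, the largest differences were those of Cd244a (-0.48) and Il10rb (-0.46). In Neu tumors against virgin glands 46 of the 91 genes (50.5%) were lower and 11 (12.1%) higher, against 28.8% and 26.8% of all genes. In Wnt-1 tumors against virgin glands 33 (36.3%) were lower and 12 (13.2%) higher, against 26.5% and 26%. Both tumor types share the virgin glands as controls. Of the 91 genes, 18 were called in none of the 8 comparisons of a pair of groups, namely Ccl2, Ccl4, Ccl24, Cxcr4, Cxcr5, Il1b, Il1f6, Il7, Il12b, Il25, Il7r, Cd3e, Cd27, Cd72, Cd99, Cd207, Cd247 and Cd300a.

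**Figure D2:**
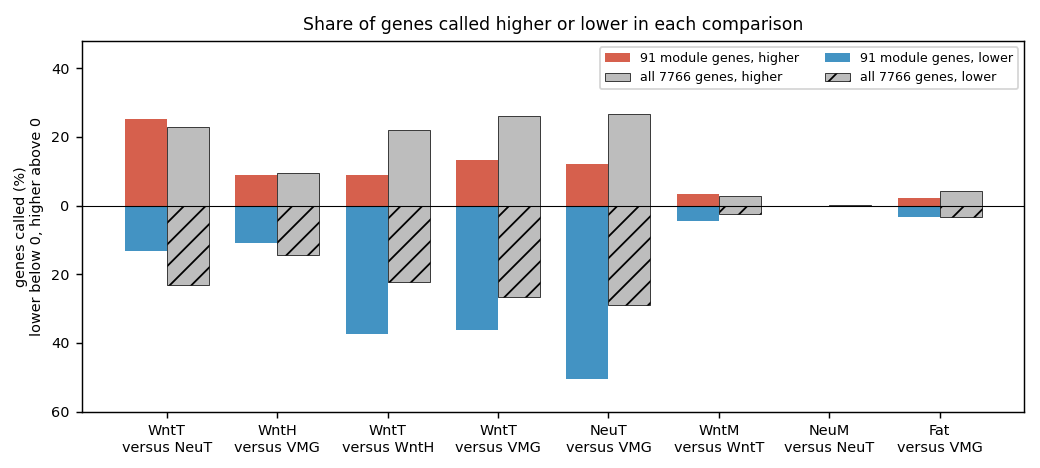
Share of genes called higher (above 0) or lower (below 0) in each comparison, in percent, for the 91 module genes (colored) and for all 7766 genes (grey). Lower calls among the module genes reach 50.5% in Neu tumors against virgin glands, where 28.8% of all genes were lower.

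Among the chemokine ligands called against virgin glands, more were lower than higher in both tumor types. Cxcl15, known as lungkine, measured 3.10, 2.51, 2.29, 2.71 and 2.74 in virgin glands and 1.62 to 2.02 in hyperplastic glands (median 1.86). It ran from -3.69 through -2.24 to -0.95 in Wnt-1 tumors and from -3.37 through -2.83 to -1.64 in Neu tumors. No tumor overlapped a gland, and expression was 31.3-fold lower in Wnt-1 tumors (adjusted p = 1.95e-14) and 42.4-fold lower in Neu tumors (adjusted p = 1.77e-12) than in virgin glands. Hyperplastic glands were lower than virgin glands by 0.84 (difference -0.84, adjusted p = 0.000494), and all 7 lay below all 5. Intestinal fat had the highest ratios, 4.10, 4.33 and 3.77. The Cxcl15 value rests on 1 clone, and the reference pool held lung RNA. In lung metastases of Wnt-1 mice, where lung epithelial genes were higher than in tumors, its mean was -2.86, against -2.3 in the tumors. Whether this clone reads Cxcl15 alone was not tested.

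Cxcl9, a ligand of Cxcr3 that is induced by interferon gamma, followed the same order. It measured 1.55, 1.5, 1.27, 1.96 and 1.57 in virgin glands, ran from 0.45 to 1.09 in hyperplastic glands, from -1.46 to -0.05 in Wnt-1 tumors and from -1.76 to -0.77 in Neu tumors, and was 2.18, 2.15 and 2.45 in fat. Virgin glands, hyperplastic glands and tumors did not overlap, and Cxcl9 was 4.29-fold lower in Wnt-1 tumors and 6.54-fold lower in Neu tumors than in virgin glands. Between the tumors it was higher in Wnt-1 tumors by 0.61 (adjusted p = 3.06e-05), a value that rests on 1 of its 2 clones (1.04 and 0.18). Ccl17, a ligand of Ccr4 made by dendritic cells, measured 1.68, 0.47, 0.80, 2.04 and 1.47 in virgin glands and ran from -2.30 through -0.95 to -0.26 in Wnt-1 tumors and from -0.77 through 0 to 0.22 in Neu tumors. It was lower in Wnt-1 than in Neu tumors by 0.85 on the log2 scale (difference -0.85 ± 0.13 SE, adjusted p = 7.24e-07), so that for this ligand the order of the tumor types was reversed. Ccl22, the other ligand of Ccr4, was lower than in virgin glands in Wnt-1 (-1.03) and Neu tumors (-0.81).

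Adipocyte genes differed between the same groups. All 13 measured adipocyte markers were called lower in Wnt-1 tumors (median -3.03) and in Neu tumors (median -3.22) than in virgin glands, 12 of 13 were lower in hyperplastic glands (median -1.30), and 9 were higher in fat. The mean of the list ran from 1.98 to 2.45 in virgin glands, 0.78 to 1.31 in hyperplastic glands, -2.45 to -0.93 in Wnt-1 tumors, -2.05 to -1.23 in Neu tumors and 2.89 to 3.22 in fat. Ccl22, unlike Cxcl15, was lower in fat, at -0.61 ± 0.30 (SD, n = 3), than in virgin glands, at 0.04 ± 0.13 (SD, n = 5). The part of fat content in the fall of Cxcl15, Cxcl9 and Ccl17 was not tested.

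Ccl6, which attracts macrophages, was the CC ligand with the largest difference between the tumors. It measured 1.46, 1.44, 1.64, 1.46 and 1.35 in virgin glands, ran from -0.86 through 0.55 to 2.30 in Wnt-1 tumors and from -3.05 through -0.99 to 1.16 in Neu tumors. Ccl6 was 2.89-fold higher in Wnt-1 tumors (adjusted p = 0.000422), but the groups overlapped, and 8 of 23 Wnt-1 tumors lay above all Neu tumors. Against virgin glands it was 4.8-fold lower in Neu tumors, and all 12 lay below the glands.

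A smaller set of chemokines was higher in transgenic tissue. Ccl12, a ligand of Ccr2, measured 0.80, 0.24, 0, 0 and 0.16 in virgin glands and ran from 0.56 through 1.03 to 1.40 in hyperplastic glands, from 0.05 through 1.21 to 2.32 in Wnt-1 tumors and from 0.10 through 0.92 to 2.15 in Neu tumors. It was higher than in virgin glands in hyperplastic glands (0.78, adjusted p = 0.00439), in Wnt-1 tumors (1.06, adjusted p = 0.00893) and in Neu tumors (0.72, adjusted p = 0.0224). The last call was lost when VMG 27 or VMG 28 was left out (0.66 in both cases, adjusted p = 0.0586 and 0.0595). Ccl3 was higher in Wnt-1 tumors than in virgin glands by 0.76 and than in Neu tumors by 0.47, and Cxcl16, a ligand of Cxcr6, by 0.61 and 0.38. Ccl9 was higher in hyperplastic glands (0.65) and Neu tumors (0.49) than in virgin glands. Of the 14 CC ligands, 3 were higher and 5 lower in Wnt-1 tumors, and 4 higher and 7 lower in Neu tumors, than in virgin glands. Of the 5 CXC ligands, 1 was higher and 3 lower in Wnt-1 tumors, and 4 were lower in Neu tumors. For comparison, 26% of all genes were higher and 26.5% lower in Wnt-1 tumors, and 26.8% higher and 28.8% lower in Neu tumors. The remaining called ligands included Ccl5, at -0.74 in both tumor types, Ccl11 (-0.64 in Wnt-1 and -0.54 in Neu tumors) and Cxcl12, the ligand of Cxcr4 (-0.80 and -0.95). The 3 Cxcl12 clones differed, with means of 0.27, -0.3 and -0.58 in virgin glands and -2.09, -0.77 and -0.61 in Neu tumors. Cxcl17 averaged -0.08 in virgin glands, -0.07 in Wnt-1 and -0.97 in Neu tumors, the last from clones at -0.25 and -1.68. Ccl28 clones were called in opposite directions in Wnt-1 tumors, at -1.11 and 0.83 against virgin glands and -0.9 and 0.78 against hyperplastic glands.

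**Figure D3:**
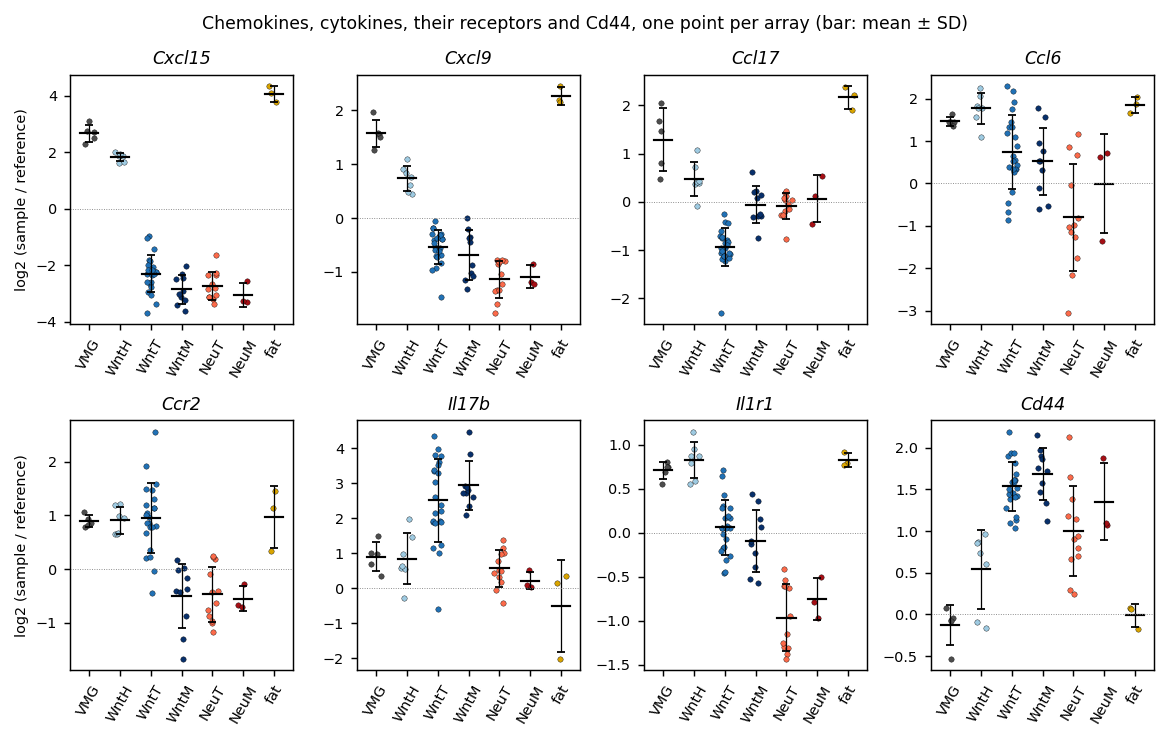
Log2 ratio of sample to reference for 4 chemokines, Ccr2, Il17b, Il1r1 and Cd44, one point per array, with the mean and SD of each group as bars. Cxcl15 and Cxcl9 lie highest in fat and virgin glands and lowest in tumors and metastases, and Il17b is highest in Wnt-1 tumors and metastases.

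Ccr2, the receptor that brings monocytes into tissue, measured 0.94, 0.85, 0.78, 0.83 and 1.06 in virgin glands. Wnt-1 tumors, from -0.45 through 0.97 to 2.56, spread around the glands and were not called against them. In Neu tumors it ran from -1.17 through -0.53 to 0.25 and was 2.58-fold lower than in virgin glands (adjusted p = 4.29e-05). Wnt-1 tumors were 2.68-fold higher than Neu tumors (1.42 ± 0.21 SE, adjusted p = 6.91e-07), and 19 of 23 lay above all Neu tumors. Ccr7, which guides T cells and dendritic cells to lymph nodes, measured 0.32, 0.17, -0.89, -0.95 and -0.68 in virgin glands, -3.02 to -0.42 in Wnt-1 tumors and -4.29 to -0.50 in Neu tumors. It was lower than in virgin glands by 1.49 in Neu tumors (difference -1.49, adjusted p = 0.00823) and than in hyperplastic glands by 1.21 in Wnt-1 tumors (difference -1.21, adjusted p = 0.00153). The difference between Wnt-1 tumors and virgin glands (-0.99, adjusted p = 0.0244) was no longer called without VMG 13 (-0.81, adjusted p = 0.0985) or without VMG 17 (-0.84, adjusted p = 0.086). Of the other receptors, Ccr1 was slightly higher in Wnt-1 tumors than in virgin glands (0.23), and Cxcr4 and Cxcr5 were called in no comparison.

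Il17b, a member of the interleukin 17 family, had the largest difference between the tumor types of all 91 genes. It measured 0.34, 1.48, 0.99, 0.69 and 1.02 in virgin glands and ran from -0.29 through 0.64 to 1.99 in hyperplastic glands. In Wnt-1 tumors it ran from -0.60 through 2.38 to 4.36, and in Neu tumors from -0.41 through 0.51 to 1.38. Il17b was 3.85-fold higher in Wnt-1 than in Neu tumors (1.94 ± 0.35 SE, adjusted p = 1.81e-05), and 19 of 23 Wnt-1 tumors lay above all Neu tumors while 1 lay below all of them. It was also higher than in virgin glands (1.61, adjusted p = 0.0114) and than in hyperplastic glands (1.66, adjusted p = 0.00383). Metastases of Wnt-1 mice, from 2.10 through 2.77 to 4.47, overlapped the Wnt-1 tumors, and those of Neu mice measured 0.10, 0.51 and 0.05. The value rests on 1 clone.

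Il33, an alarmin stored in nuclei, was higher in Wnt-1 than in Neu tumors by 0.66 (adjusted p = 7.17e-06), but its 3 clones gave 1.65, 0.52 and -0.19, each called, so the direction depends on the clone. Of the 12 interleukin ligands, 2 were higher (Il17b and Il33) and 2 lower (Il4 by -0.44 and Il15 by -0.35) in Wnt-1 than in Neu tumors. Over all genes 22.8% were higher and 23% lower. Against virgin glands, Il17d was lower in both tumor types (-0.35 in Wnt-1 and -0.50 in Neu tumors). No interleukin ligand was called in hyperplastic glands.

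Among the 13 interleukin receptors, Il1r1, the signaling receptor of interleukin 1, graded from glands to tumors. It measured 0.69, 0.81, 0.55, 0.75 and 0.75 in virgin glands, ran from 0.56 to 1.15 in hyperplastic glands, from -0.46 through 0.06 to 0.72 in Wnt-1 tumors and from -1.43 through -1.05 to -0.41 in Neu tumors. Neu tumors lay wholly below the glands, and 21 of 23 Wnt-1 tumors lay above all Neu tumors (2.03-fold, adjusted p = 4.25e-09). Il3ra, the alpha chain of the interleukin 3 receptor, was lower than in virgin glands in hyperplastic glands (-0.98, adjusted p = 0.00315), Wnt-1 tumors (-1.77, adjusted p = 6.04e-14) and Neu tumors (-1.38, adjusted p = 1.35e-07). Il6st, the shared chain gp130, was lower in Wnt-1 (-0.83) and Neu tumors (-1.07), and Il2ra was lower in Neu tumors (-1.22). Il17rc and Il17re, receptors of interleukin 17 family members, were both higher in Neu tumors than in virgin glands by 0.58 and lower in Wnt-1 than in Neu tumors (-0.42 and -0.31). In all, 4 of 13 receptors were higher and 5 lower in Wnt-1 than in Neu tumors, and 7 of 13 were lower and 2 higher in Neu tumors than in virgin glands. The shares of all genes were 22.8% higher and 23% lower in the first comparison, and 28.8% lower and 26.8% higher in the second.

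The CD antigens are given by the cells that carry them, first the 8 broad and epithelial antigens. Of these, 3 were higher in Wnt-1 tumors than in virgin glands (Cd44, Cd24a and Cd9) and 3 lower (Cd151 by -0.86, Cd47 by -0.32 and Cd55 by -0.28), and 4 were higher (the same 3 and Cd55) and 2 lower (Cd151 by -0.94 and Cd47 by -0.27) in Neu tumors. Among all genes 26% were higher and 26.5% lower in Wnt-1 tumors, and 26.8% higher and 28.8% lower in Neu tumors. The 3 Cd47 clones differed. Their means were -0.99, 0.23 and 0.04 in virgin glands and -0.83, -0.42 and -0.45 in Wnt-1 tumors. In Neu tumors these means were -0.95, -0.55 and -0.03. Of 9 measured mammary epithelial markers outside the 91, 4 were higher and 3 lower in Wnt-1 tumors (median 0.08) and 3 higher and 4 lower in Neu tumors (median -0.19), and the part of epithelial content was not tested. Cd44, the hyaluronan receptor, measured -0.53, -0.06, 0.08, -0.04 and -0.08 in virgin glands and ran from -0.16 through 0.74 to 0.96 in hyperplastic glands, from 1.04 through 1.52 to 2.19 in Wnt-1 tumors and from 0.24 through 0.92 to 2.13 in Neu tumors. All tumors lay above all virgin glands, and Cd44 was 3.17-fold higher in Wnt-1 tumors (adjusted p = 3.32e-11) and 2.19-fold higher in Neu tumors (adjusted p = 0.000613). The call in hyperplastic glands (0.67, adjusted p = 0.0321) was lost without VMG 13 (0.57), VMG 28 (0.69) or VMG 29 (0.68).

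Cd24a, a surface glycoprotein of mammary epithelium, measured -2.01, -2.07, -1.61, -1.59 and -1.59 in virgin glands, ran from -1.64 through -0.58 to 0.15 in Wnt-1 tumors and from -1.22 through -0.64 to -0.20 in Neu tumors, and was 2.3-fold and 2.2-fold higher in them. Fat, at -4.58, -4.55 and -4.73, lay far below every gland. The tetraspanin Cd9 measured -0.05, 0.53, 0.71, 0.52 and 0.78 in virgin glands, 1.00 to 1.53 in hyperplastic glands (median 1.36) and 1.61 to 2.51 in Neu tumors (median 2.23), where it was 3.19-fold higher (adjusted p = 5.53e-08). In Wnt-1 tumors it ran from 1.49 through 1.82 to 8.64, the last in WntT 79. That array widened the spread, so that the difference from virgin glands (1.61, adjusted p = 0.0331) was not called when any of VMG 13, 17, 27, 28 or 29 was left out (adjusted p between 0.0503 and 0.0854), nor without WntT 8 and 20 to 26, the 8 tumor arrays with the narrowest spread of ratios (1.77, adjusted p = 0.0613). With extreme ratios set missing, it was 1.31 (adjusted p = 7.83e-12).

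All 3 pan-leukocyte antigens (Cd37, Cd52 and Cd53) were called lower in Neu tumors, and Cd37 and Cd52 in Wnt-1 tumors as well. Cd53 was not called in Wnt-1 tumors, where its clones differed. Clone means were -0.21, -0.25 and 0.26 in virgin glands and -0.89, -0.97 and 0.12 in Wnt-1 tumors. Cd52, a short glycoprotein of lymphocytes and macrophages, measured -0.37, -0.17, -0.70, -0.55 and -0.54 in virgin glands and ran from -1.79 through -1.31 to -0.67 in Wnt-1 tumors and from -2.39 through -2.06 to -1.28 in Neu tumors. It was 1.71-fold lower in Wnt-1 tumors and 2.82-fold lower in Neu tumors than in virgin glands, and 1.65-fold higher in Wnt-1 than in Neu tumors. Of the 10 T, B and NK cell antigens, 3 were lower in Wnt-1 tumors and 4 in Neu tumors than in virgin glands, and none was higher. The lower counts were thus near the shares of all genes, 26.5% lower in Wnt-1 and 28.8% lower in Neu tumors. Cd79a, a chain of the B cell receptor, was lower in both (-0.75 and -0.98), as was Cd3d, a chain of the T cell receptor complex (-0.76 and -0.65), whereas Cd3e, another of its chains, was not called. The call of Cd3d in Neu tumors was lost without VMG 13, 17 or 27 (-0.54, -0.65 and -0.60) and after quantile normalization (-0.45). Of the myeloid and dendritic antigens, the lectin Cd209g was lower in Wnt-1 (-1.54) and Neu tumors (-1.63), and the costimulator Cd86 was higher in Neu tumors (0.51).

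Both stromal antigens fell in tumors. Cd248 (endosialin), of pericytes and fibroblasts, measured 1.21, 1.60, 2.08, 2.21 and 1.60 in virgin glands, ran from 0.05 to 0.81 in Wnt-1 tumors and from -1.22 to 0.36 in Neu tumors, and was 2.33-fold and 4-fold lower in them. Cd34, of endothelium and stromal progenitors, was lower in Wnt-1 (-1.21) and Neu tumors (-1.20) as an average of 2 clones. These clones differed in opposite directions between the tumor types (0.61 and -0.63, each called). The mean of the first went from 1.28 in virgin glands to -0.29 in Wnt-1 and -0.9 in Neu tumors. That of the second went from 0.55 to -0.3 and 0.34. Endothelial markers fell in the same comparisons, with 11 of 12 lower in Wnt-1 and 10 of 12 in Neu tumors, and their part in the fall of Cd34 was not tested. Cd55, which restrains complement, was lower in Wnt-1 than in Neu tumors (-0.59 ± 0.08 SE, adjusted p = 1.46e-07), with 20 of 23 below all Neu tumors. Against virgin glands it was lower in Wnt-1 tumors (-0.28) and higher in Neu tumors (0.31). The first of these calls was lost without VMG 29 (-0.25) or without WntT 8 and 20 to 26 (-0.27) and the second without VMG 13 (0.28), 17 (0.28), 27 (0.31) or 28 (0.32).

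**Figure D4:**
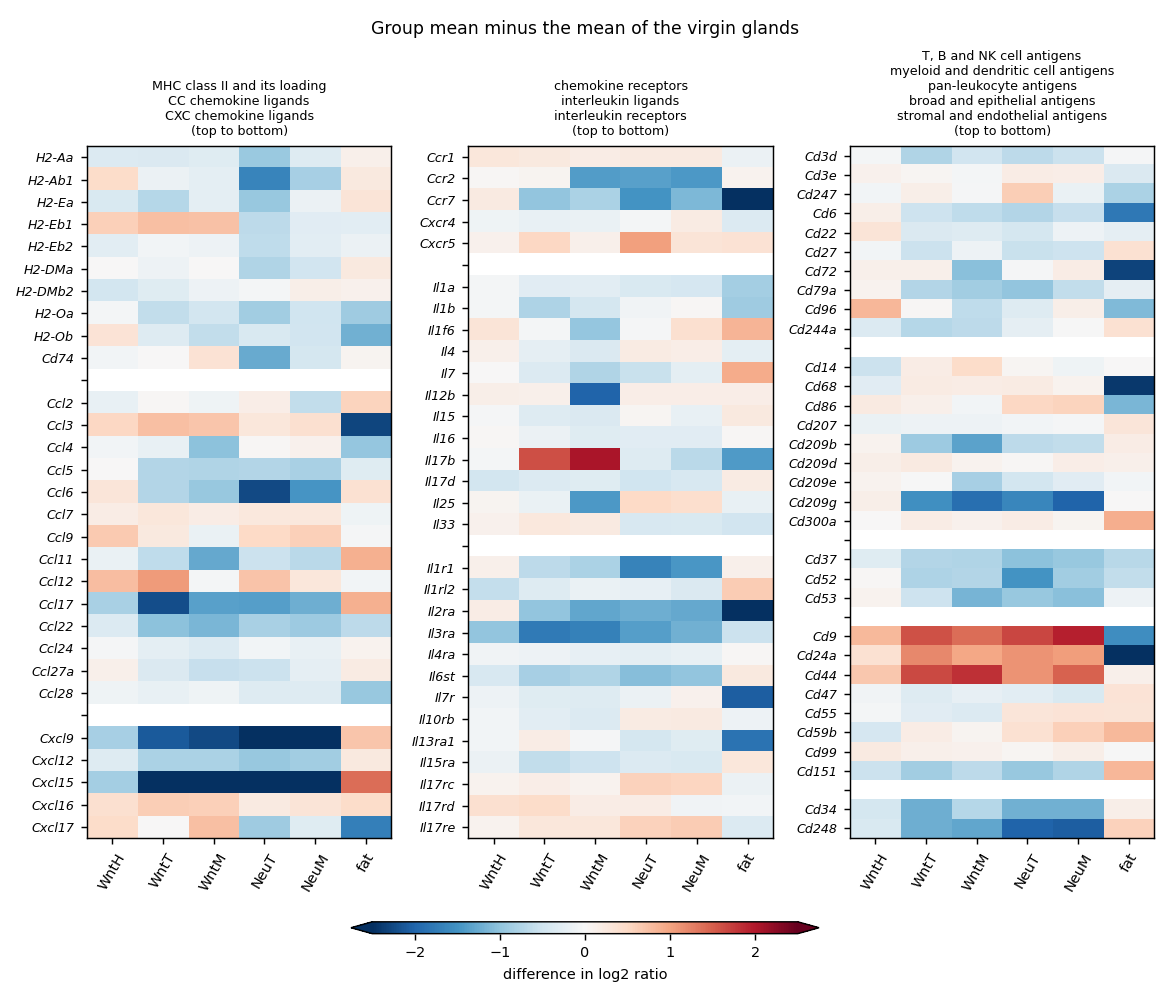
Difference of each group's mean log2 ratio from the mean of the virgin glands for all 91 genes, ordered by role. The color scale ends at 2.5 on either side, as arrows at the ends of the scale show, and Cxcl15 and Cxcl9 in tumors and Cd24a in fat are among the strongest decreases; the mean of fat includes the wide array fat 44.

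Hyperplastic glands of Wnt-1 mice differed from virgin glands in few of the genes. Of the 91, 8 (8.79%) were higher and 10 (11%) lower, against 9.58% and 14.3% of all genes, and after centring each array on its median the counts were 9 and 8, and after quantile normalization 12 and 8. The lower calls came down to 6 without VMG 27 and to 5 without VMG 28 or without VMG 29, with 8, 7 and 7 higher. The higher genes were Cd96 (0.83), Cd9 (0.82), Ccl12 (0.78), Cd44 (0.67), Ccl9 (0.65), H2-Eb1 (0.59), Ccl3 (0.51) and Il17rd (0.40). Every one of the 7 hyperplastic glands lay above all virgin glands for Cd96, Cd9, Ccl9, H2-Eb1 and Il17rd. How many of all genes separated in this way was not counted. The lower genes were Il3ra (-0.98), Cxcl15 (-0.84), Cxcl9 (-0.83), Ccl17 (-0.81), Cd151 (-0.52), H2-DMb2 (-0.44), Cd34 (-0.43), H2-Ea (-0.40), Il6st (-0.40) and Ccl22 (-0.33). Ccl17 was no longer called without VMG 13 (-0.72), VMG 28 (-0.62) or VMG 29 (-0.77), nor was H2-DMb2 without VMG 28 (-0.40) or VMG 29 (-0.37).

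From hyperplasia to tumor in Wnt-1 mice, 34 of the 91 genes (37.4%) were lower and 8 (8.79%) higher, against 22.2% and 21.9% of all genes. The median over the 91 genes was -0.22, against -0.03 over all genes. Cxcl15 was 17.5-fold lower, and Cd209g (-1.68), Ccl17 (-1.41), Cxcl9 (-1.27), Ccr7 (-1.21) and Ccl6 (-1.03) followed. Il17b (1.66), Cd44 (0.99), Cd24a (0.82), Cd14 (0.71), Cd59b (0.61) and Cd68 (0.48) were higher. Cd68 is a marker of macrophages, but of the 13 other macrophage and dendritic markers 1 was higher (Clec7a) and 4 were lower (Cst7, Fcgr3, Mrc1 and Tyrobp), with a median of -0.07. Cd14 was no longer called without WntT 8 and 20 to 26 (0.52, adjusted p = 0.0761). Of the T, B and NK cell antigens, 5 of 10 were lower (Cd79a, Cd96, Cd3d, Cd22 and Cd244a), and 12 of 15 pan-leukocyte markers were lower (median -0.55). H2-Ab1 was lower by a small amount (-0.61, adjusted p = 0.029; without those 8 arrays -0.48, adjusted p = 0.116), whereas H2-Eb1 and Cd74 were not called.

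Within Wnt-1 tumors, no gene of the 91 was called as related to the pan-leukocyte markers in both sets into which the arrays fell. Sets of 15 and 8 arrays can miss a relation, so the lack of a call does not show its absence. Over all 23 arrays, 20 genes correlated positively with the mean of the 15 markers at a Benjamini-Hochberg adjusted permutation p under 0.05. The 8 arrays WntT 8 and 20 to 26 had the narrowest spread of ratios, with a standard deviation from 0.67 to 0.78, against 0.855 to 1.78 in the other 15. Their marker mean ran from -0.93 to -0.64, against -1.34 to -0.79 in the other 15 arrays. Ccl5, a ligand made by T cells, ran from -0.50 to -0.30 in the 8 arrays and from -2.06 to -0.49 in the others. Ccr7 ran from -0.76 to -0.42 against -3.02 to -1.10, and only for Ccr7 of this pair did the sets not overlap. Each set was therefore taken alone, a split by spread that was chosen after the data were seen.

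Across the 15 arrays 0 of the 91 genes were called, with 3 at an unadjusted permutation p under 0.05. These were Il16 (r = 0.65), Il4ra (0.57) and Il6st (-0.58), which had r of 0.66, 0.65 and 0.22 in the 8 arrays, not called. Ccl5 had a Pearson r of 0.41 in the 15 arrays (adjusted permutation p = 0.656, Spearman rho 0.35, adjusted permutation p = 0.721, and r = 0.43 without the 2 arrays farthest from the median of the marker mean). Across the 8 arrays 1 gene was called, Ccl17, with r = 0.95 (adjusted exact permutation p = 0.00677), rho = 0.98 (adjusted exact permutation p = 0.0361) and r = 0.89 without the 2 farthest arrays. In the 15 arrays the r of Ccl17 was 0.14 (adjusted permutation p = 0.831). Of the class II genes none was called in either set, with Cd74 at 0.10 and 0.54, H2-Ab1 at 0.10 and 0.75 and H2-Eb1 at -0.40 and 0.04 in the 15 and the 8 arrays. Without the 8 arrays, 23 genes were higher and 14 lower in Wnt-1 than in Neu tumors, and 33 of the 35 calls made with them were kept. Across the 12 Neu tumors 1 gene was called, Ccl3, with a negative r of -0.88 (adjusted permutation p = 0.0173), a rho of -0.94 (adjusted permutation p = 0.00364) and r = -0.80 without the 2 farthest arrays.

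Lung metastases of Wnt-1 mice differed from Wnt-1 tumors in few of the genes. Of the 91, 3 (3.3%) were higher and 4 (4.4%) lower, against 2.88% and 2.58% of all genes. Ccr2 ran from -1.67 through -0.40 to 0.17 in the metastases and was 2.75-fold lower than in tumors (difference -1.46 ± 0.24 SE, adjusted p = 6.77e-05). Ccl17 ran from -0.74 through -0.08 to 0.62 and was 1.83-fold higher (adjusted p = 0.000116), and Cd34 was higher by 0.51 (adjusted p = 0.00463). For both Ccr2 and Ccl17 the groups overlapped, with 3 and 6 of 10 metastases outside the range of the tumors. These 3 calls held when the wide arrays WntM 19, 50 and 52 and WntT 42 and 49 were left out, whereas Ccl12 (-1.10, then -0.85), Cd209e (-0.82, then -0.50), Cd53 (-0.65, then -0.54) and H2-Ea (0.47, then 0.35) were then no longer called. The metastases held lung tissue by their markers, since 4 of 5 measured lung epithelial genes were higher (Scgb1a1 by 7.41 and Sftpc by 6.33), as were 5 of 12 endothelial genes, and their part in these values was not tested. Cxcl15, the lung chemokine, ran from -3.63 through -2.97 to -2.02 in the metastases, which overlapped the tumors.

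In metastases of Neu mice none of the 91 genes was called against Neu tumors with limma, where 0.155% of all genes were called higher and 0% lower. At an unadjusted p under 0.05 there were 5 genes, 3 higher and 2 lower, the smallest adjusted p was 0.444, and the permutation test of the methods called 0. H2-Ab1 measured -0.83, -0.73 and -0.30, H2-Eb1 -0.52, -0.46 and -0.47, and Cd74 -0.51, -0.56 and -0.51. These values lay within the range of the Neu tumors except for H2-Ab1 at -0.30, which lay just above it. The test of whether the change from tumor to metastasis differed between Wnt-1 and Neu mice called 0 of the 91 genes with limma, against 0.0386% of all genes higher and 0.0129% lower, with 8 at an unadjusted p under 0.05 and a smallest adjusted p of 0.321.

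Intestinal fat had higher or lower levels than virgin glands in 5 of the 91 genes, 2 (2.2%) higher and 3 (3.3%) lower, against 4.3% and 3.19% of all genes. Cd24a was 7.2-fold lower (adjusted p = 0.000429), Cd9 2.93-fold lower (adjusted p = 0.00837) and Cxcl15 2.63-fold higher (adjusted p = 0.011). Cd24a and Cxcl15 gave much the same values without the wide array fat 44 (-2.87 and 1.38). Ccl22 was 1.56-fold lower (adjusted p = 0.0498), a call that was lost when any one virgin gland, fat 45 or fat 46 was left out and after quantile normalization. Cd151, a tetraspanin, was higher by 0.83 (adjusted p = 0.0489), but not called without fat 44 (0.81, adjusted p = 0.0514). Quantile normalization called 5 genes too, 0 higher and 5 lower, of which 1 was among the first 5. Of 9 mammary epithelial markers, 4 were lower in fat (median -1.97), and the class II genes were not called, with H2-Ab1 at 0.70, 0.31 and 0.36 and Cd74 at 0.16, -0.03 and -0.19.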

How the data were processed

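The files hold log2 ratios of sample (Cy5) over reference (Cy3) for each clone, which the authors normalized within each array before they were deposited; slides were scanned on a GenePix scanner, and the images were analyzed with ArraySuite. The quality filter of the methods was not repeated, and the normalization can only be seen in array medians between -0.144 and 0.043. Of 998400 values 8 were missing. Clones of a single symbol were averaged per gene. Groups were compared pairwise with limma 3.58.1 in R 4.3.3 (lmFit and eBayes) over 7766 genes, for genes measured on 50% or more of both groups' arrays (minimum 2), and called at a Benjamini-Hochberg adjusted p under 0.05. The script was tested on simulated data. Correlations used 100000 permutations, or all of them for 8 arrays. The permutation test of the methods (P under 0.001) was run with at most 100 regroupings pooled over genes. Other settings were centring, quantile normalization, a common fit, a trended robust prior, ratios under 0.01 or over 100 set missing, arrays left out (the 8 Wnt-1 tumor arrays of a standard deviation under 0.8 after seeing the data) and clones tested alone. The module and the gene lists were chosen with earlier results of these data known. Genes named were drawn from the 6 largest called rises and falls of each comparison, class II genes, chemokines and their receptors, Cd9, Cd14, Cd24a, Cd44 and Cd74, and called interleukin genes. Not every gene of these kinds is named, and other genes named were chosen after their values were seen.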

Additional observations from a re-analysis of the deposited data

Results flagged for a closer look

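Over 27 genes and 81 groups of 4 to 10 arrays, 5 groups (6.17%) held 1 array far from the rest, where chance gives about 1 in 20. In virgin glands, VMG 13 was low for H2-Eb1 at -0.43 (others -0.18 to -0.11) and for Cd44 at -0.53 (others -0.08 to 0.08), and VMG 29 was low for H2-Ob at -0.98 (others -0.25 to -0.11). Among metastases, WntM 52, a wide array, was low for H2-Eb2 at -0.86 (others -0.54 to -0.23), and among hyperplastic glands WntH 5 was high for Cd24a at -0.15 (others -1.89 to -1.23).

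The change from virgin gland to tumor differed between the oncogenes for H2-Eb1 by 1.41 (limma adjusted p = 6.63e-11) and for Cd55 by -0.59 (limma adjusted p = 1.46e-07), each called in opposite directions against the glands that both changes share. As the shared glands cancel, these are the same differences between the tumor types as given above, not further tests. H2-Eb1 was higher in Wnt-1 and lower in Neu tumors, and Cd55 was lower in Wnt-1 and higher in Neu tumors. Both Cd55 calls against the glands were lost when certain single virgin glands were left out, and not every H2-Eb1 clone was lower in Neu tumors than in the glands. Oncogene, strain and age cannot be told apart in these differences.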

How the results depend on the processing

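Of 118 recomputed counts of called genes and relations, 101 stayed within 1.5 times the reported count. No called gene changed sign in 2373 recomputed gene values, of which 271 were no longer called. These 2373 values did not include clones tested alone. There, 5 genes had clones called in opposite directions within a comparison, in 7 instances. The permutation test of the methods called fewer genes, 6 instead of 18 in hyperplastic against virgin glands, 25 instead of 42 in Wnt-1 tumors against hyperplastic glands, 21 instead of 45 in Wnt-1 tumors and 30 instead of 57 in Neu tumors against virgin glands. Across Wnt-1 tumors, the 20 genes related to the pan-leukocyte mean became 0 without the 8 arrays of a standard deviation under 0.8 and 1 in those 8 alone, a setting chosen after seeing the data. Without the wide arrays, 3 instead of 7 genes were called in Wnt-1 metastases. Fat against virgin glands (5 genes) gave 24 with all groups in one fit, 8 with a trended robust prior, 11 with extreme ratios set missing, 12 without wide arrays, 11 with clones tested alone, and 3 to 12 when single arrays were left out (12 without fat 44). With the title number as a replicate block, 7 genes were called in Wnt-1 metastases, 0 in Neu metastases and 0 for the difference between both, as without it. Correlations of same-numbered samples ran from -0.06 to 0.3 over 7 Wnt-1 pairs and from -0.01 to 0.1 over 3 Neu pairs, and 1 and 0 metastases correlated best with the tumor of their own number, so the numbers were not used as pairs. The cause of these changes was not tested. Fat and Neu metastases, with 3 arrays each, limit what those comparisons can show, and single clones carry the values of 58 genes.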

Other observations

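The 2 lung metastases of nontransgenic mice that received Neu tumor cells entered no comparison of the report. In an alternative that added them to the metastases of MMTV-Neu mice, 0 of the 91 genes were called against Neu tumors with limma (0.219% of all genes). Il7 measured 3.47 and 1.82 in them, against 0.76 at most in the 3 metastases of MMTV-Neu mice and 1.78 at most in the 12 Neu tumors. H2-Eb1 measured -0.56 and 0.48, H2-Ab1 -0.79 and -1.99, Cd74 -0.66 and -1.23, and Ccr2 -0.74 and -0.96. For H2-Eb1 the second array lay above all Neu tumors and all metastases of MMTV-Neu mice, while for Cd74 and Ccr2 both lay within the range of the Neu tumors.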
